A study of Mus musculus with 6 samples.

Results

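The enzymes that burn fatty acids in mitochondria, together with those that feed and run the tricarboxylic acid (TCA) cycle, were followed in the mouse heart through 39 genes. The genes were chosen by name, as the rows of the deposited expression table whose symbol equalled a listed enzyme or carrier. All 39 were found among the 22556 genes of the table. They comprised 20 genes of fatty acid uptake, activation and oxidation and 19 genes of pyruvate dehydrogenase, pyruvate carboxylase and the TCA cycle. Levels were given in RPKM, which are read counts scaled to transcript length and to the size of the library, so levels of different genes can be compared per length. All 39 reached the mean of at least 1 RPKM that was required for testing, as did 11096 genes in all.

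Hearts came from wild-type mice in 3 groups of 2 libraries each, listed at 0, 7 and 28 days of angiotensin II (Ang II), a blood pressure-raising peptide. The infused mice received 1000 ng per kg per min under the skin from osmotic minipumps. The group listed at 0 days served as the control, and the labels do not say whether it carried a pump. The sources used here give no strain, sex or age, and they do not say whether each library came from a separate mouse, so the spread behind the p-values is that between these libraries and may be technical.

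Fatty acids enter the cardiac myocyte through carriers such as CD36, are bound to coenzyme A, cross into the mitochondrion as carnitine esters and are shortened step by step by dehydrogenases, hydratases and thiolases. The acetyl-CoA made in this way joins that made from pyruvate by the pyruvate dehydrogenase complex and is oxidised in the TCA cycle. The adult heart draws most of its energy from fatty acids, and in the pressure-loaded heart a lower level of fatty acid oxidation genes is a well-known feature of hypertrophy.

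Sequencing depth relative to control replicate 1, read from the steps between low RPKM values, lay between 0.89 and 1.17, and between 15636 and 16036 genes lay above 0 in a library. Absolute depth is not known. The sum of RPKM over all genes was less even, at 333258 and 347267 in the controls, 541588 and 435749 at 7 days and 360911 and 400134 at 28 days. All 10 cardiac myocyte markers were detected, with summed levels of 43263 to 58034 RPKM per library. The atrial markers Myl7 and Myl4 stood at 646 and 473 RPKM in control replicate 2, against 52.5 and 32.4 RPKM in control replicate 1, so the control libraries differed in atrial transcripts. At 7 days Myl7 stood at 41.2 and 66.2 RPKM and Myl4 at 52.6 and 53.0 RPKM. At 28 days they stood at 341 and 182 RPKM and at 263 and 150 RPKM. Both markers were thus higher in each 28 day library than in either 7 day library, as were Sln and Nr2f2 of the same list. Nppa and Bmp10 of that list overlapped between these times. Nppa stood at 1932 and 2084 RPKM at 7 days, against 215 and 1605 RPKM in the controls, and so did not follow Myl7. The part of atrial transcripts in the differences of the 39 genes was not tested. Between the control libraries the log2 differences of the 39 genes, replicate 2 from replicate 1, lay between -0.12 and 0.14.

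In the control hearts these were among the most abundant messages of the table. Of the 39 genes, 32 stood at or above 100 RPKM and 33 were within the 500 highest of all genes. Mdh1, the cytosolic malate dehydrogenase, was highest at a mean of 1162 RPKM, followed by Fabp3, the heart fatty acid-binding protein, at 922 RPKM. The mitochondrial dehydrogenases Mdh2 and Idh2 followed at 836 and 831 RPKM. Their control libraries overlapped, so that pair has no order. Within beta-oxidation the thiolase gene Acaa2 was highest, at 668 RPKM. The lowest members were Acot2 at 21.0, Acot1 at 13.4 and Pcx at 5.42 RPKM. Pcx encodes pyruvate carboxylase, which refills the cycle with oxaloacetate.

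The first comparison set the 7 day hearts against the controls. Both 7 day libraries lay below both controls in 9 of 10 genes of the mitochondrial beta-oxidation spiral, and in 1 of 5 genes of fatty acid uptake and activation. One gene, the thiolase Acaa2, fell, and 0 rose, in limma at an adjusted p under 0.05 (Benjamini-Hochberg, 11096 genes). Over all tested genes 2.27% fell and 13.2% rose at that threshold, so the share of members that fell, 2.56%, lay near the background. At an unadjusted p under 0.05, 8 of 39 were lower (20.5%, against 5.66% of all tested genes) and 0 were higher (26.5% of all tested genes). The 8 were Acaa2, Hadhb, Hadh, Etfa, Acadm, Decr1, Idh3b and Fh1. In 25 of 39 both 7 day libraries lay below both control libraries (64.1%, against 16.1% of all tested genes), and in 6 both lay above (15.4%, against 48.6%). The median log2 change was -0.20 over the 39 genes and 0.14 over all tested genes, which is -0.34 relative to all. Both rescalings tried, median ratio scaling and quantile normalization, bring the median of all genes close to 0. They moved the median of the 39 to -0.36 and -0.35, and the number that fell to 7 and 9.

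Acaa2, the thiolase that releases acetyl-CoA in the last step of the spiral, stood at 511 and 407 RPKM at 7 days, against 692 and 643 RPKM in the controls. The groups did not overlap, and the log2 change was -0.55 (SE 0.13, n = 2 per group; limma adjusted p = 0.0358). Leaving out control replicate 1, control replicate 2 or replicate 2 of the 7 day hearts ended the call (limma adjusted p = 0.237, 0.145 and 0.0985), while the log2 change lay between -0.71 and -0.38. It was also lost with no filter on low values and with no mean-variance trend (limma adjusted p = 0.0874 and 0.0521).

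Of the other 9 genes of the spiral none passed, and those with the lowest p were Hadhb, Hadh and Acadm. Hadh, the dehydrogenase for shorter chains, stood at 265 and 223 RPKM at 7 days, against 335 and 319 RPKM in the controls (log2 change -0.43, SE 0.12; limma adjusted p = 0.0593). Hadhb, the thiolase subunit of the mitochondrial trifunctional protein, stood at 210.0 and 172 RPKM, against 257 and 253 RPKM in the controls (log2 change -0.42, SE 0.12; limma adjusted p = 0.0547). In both genes the 7 day libraries lay below both controls, and 7 day replicate 2 was the lower of the pair. Acadm, the medium-chain acyl-CoA dehydrogenase, stood at 444 and 372 RPKM at 7 days, against 543 and 528 RPKM in the controls, a log2 change of -0.40 (limma adjusted p = 0.0685). All 3 passed after either rescaling or without 7 day replicate 1. Without 7 day replicate 2 the log2 changes of Hadh and Hadhb were -0.30 and -0.28, and over all libraries left out their highest limma adjusted p were 0.308 and 0.277.

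Acadl, the long-chain acyl-CoA dehydrogenase, was the exception among the 10 beta-oxidation genes. It stood at 499 and 455 RPKM at 7 days, against 472 and 475 RPKM in the controls, so the groups overlapped. Its log2 change was 0.01, with a 95% confidence interval of -0.23 to 0.25. In the other 9 genes both 7 day libraries lay below both controls, as in 16.1% of all tested genes. Their log2 changes lay between -0.55 in Acaa2 and -0.15 in Acads, the short-chain acyl-CoA dehydrogenase. Decr1, which handles unsaturated fatty acids, stood at -0.33 on the log2 scale. Acadvl, the very long-chain dehydrogenase, stood at -0.24, but 45% of its annotated exon bases lie opposite exons of Dvl2, and the sources used here do not say whether reads were counted by strand.

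**Figure D1:**
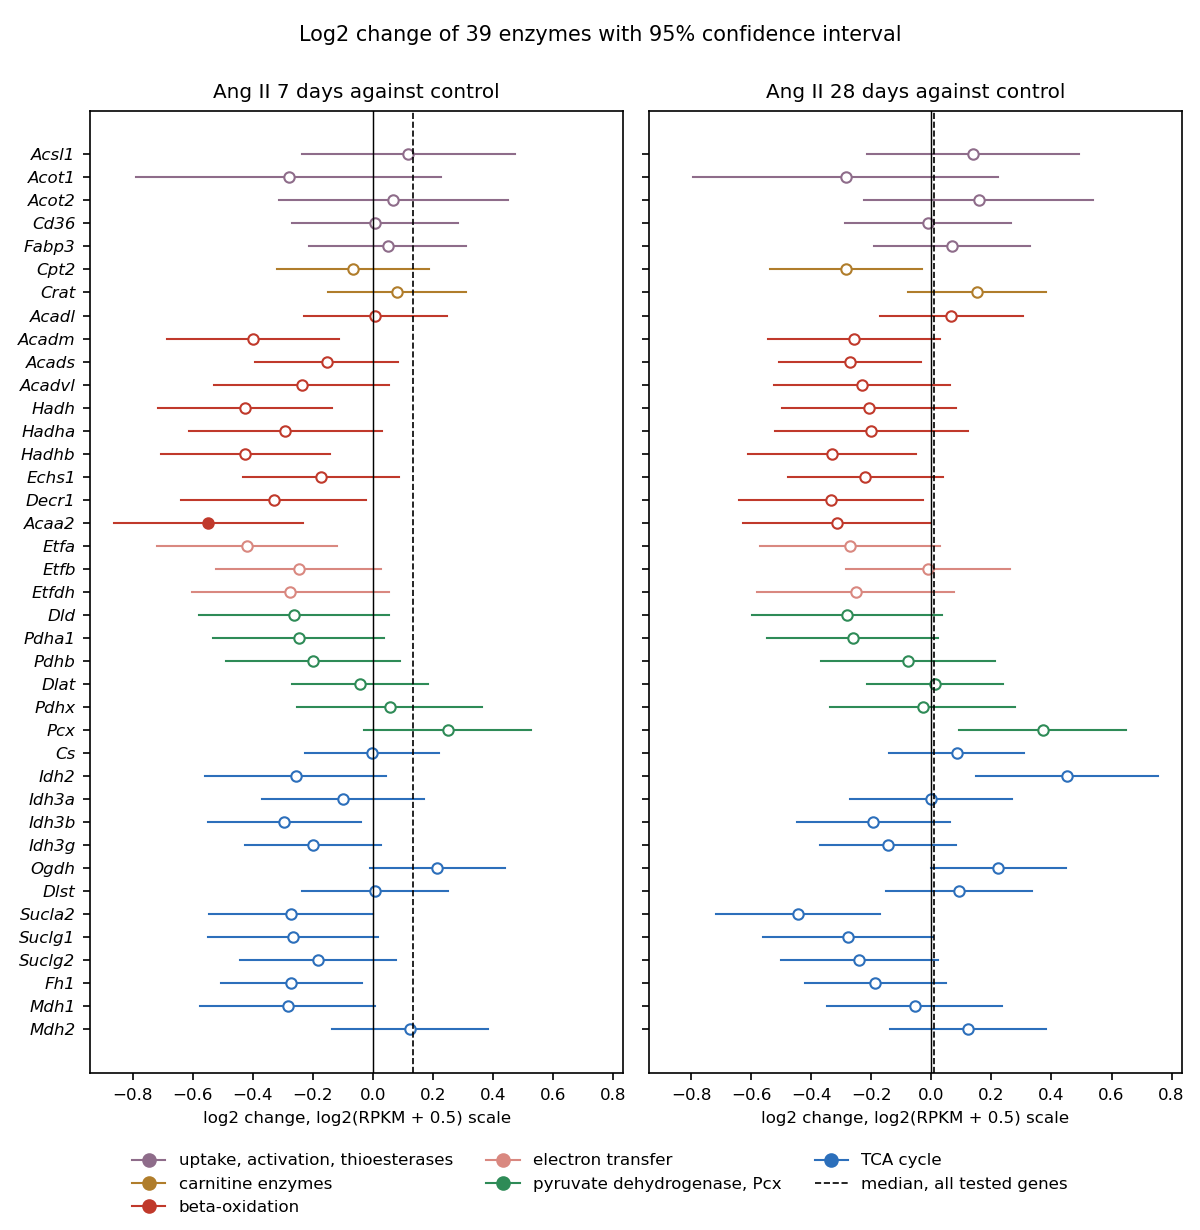
Log2 change of each of the 39 genes against the controls on the log2(RPKM + 0.5) scale (horizontal axis), after 7 days (left) and 28 days (right), with 95% confidence intervals from limma; rows are genes, colours are roles, filled points passed and open points did not, and the dashed line is the median of all tested genes. At 7 days Acaa2 is the single filled point, and 9 of the 10 beta-oxidation genes lie left of 0 in both panels, with Acadl the exception.

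Hadha and Hadhb, whose products form the trifunctional protein that carries out several steps on long chains, are read in opposite directions from neighbouring starts. In the RefSeq promoter table (GRCm38.p6) their starts lie 273 bases apart, and the windows of 300 bases, from 250 before to 50 after each start, share 228 bases. The Hadhb window, chr5:30155003-30155302 on the plus strand, is shown because it holds the stretch between the starts that both windows share. Capitals mark the 228 bases that also lie in the Hadha window, and they hold neither start.
Hadhb: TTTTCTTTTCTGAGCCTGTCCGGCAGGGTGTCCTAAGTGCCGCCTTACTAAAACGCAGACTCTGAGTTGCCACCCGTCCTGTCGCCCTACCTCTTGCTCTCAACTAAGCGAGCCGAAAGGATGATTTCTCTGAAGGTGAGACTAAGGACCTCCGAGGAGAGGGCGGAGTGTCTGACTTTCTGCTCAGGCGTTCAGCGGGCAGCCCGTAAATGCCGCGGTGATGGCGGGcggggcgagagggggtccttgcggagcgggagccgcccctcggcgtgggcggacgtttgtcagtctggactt
Hadha stood at 307 and 273 RPKM at 7 days, against 360 and 349 RPKM in the controls, a log2 change of -0.29 (limma adjusted p = 0.192). Both genes of the pair were thus lower in every 7 day library than in either control. The ratio of Hadhb to Hadha within a library was 0.684 and 0.629 at 7 days, against 0.714 and 0.725 in the controls.

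Electron transfer flavoprotein passes electrons from the acyl-CoA dehydrogenases to the respiratory chain. Etfa, its alpha subunit, stood at 184 and 148 RPKM at 7 days, against 215 and 228 RPKM in the controls, a log2 change of -0.42 (SE 0.13; limma adjusted p = 0.0674). Etfb, the beta subunit, stood at 609 and 509 RPKM, against 673 and 648 RPKM in the controls (log2 change -0.25; limma adjusted p = 0.195). Etfdh, the dehydrogenase that hands the electrons to ubiquinone, stood at 256 and 221 RPKM, against 296 and 279.9 RPKM in the controls (log2 change -0.28; limma adjusted p = 0.225). The 7 day libraries of all 3 genes lay below both controls, as in 16.1% of all tested genes, and none passed. Of the exon bases of Etfb, 69.1% are shared with the annotated gene Gm45233 on the same strand.

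Genes upstream of the spiral lay closer to the controls. Cd36, the fatty acid carrier of the cell membrane, stood at 443 and 432 RPKM at 7 days, against 434 and 437 RPKM in the controls (log2 change 0.01, 95% confidence interval -0.27 to 0.28). Fabp3 stood at 1018 and 892 RPKM, against 961 and 883 RPKM in the controls (log2 change 0.05, 95% confidence interval -0.21 to 0.31). Acsl1, which binds long-chain fatty acids to coenzyme A, stood at 195 and 176 RPKM, against 167 and 174 RPKM in the controls (log2 change 0.12; limma adjusted p = 0.63). The uptake and activation genes overlapped with the controls or lay just above them, and Acot1 alone lay below. Of the carnitine enzymes, Cpt2, which frees fatty acids from carnitine inside the mitochondrion, had a log2 change of -0.06 and Crat, the carnitine acetyltransferase, one of 0.08 (limma adjusted p = 0.721 and 0.609). The signs of Acsl1, Acot2 and Crat turned below 0 with either rescaling.

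Acot1 and Acot2 encode thioesterases of the cytosol and the mitochondrion and are close copies. Of the 50-base words in the GENCODE transcripts of Acot1, 23.5% also occur in Acot2, and 24.5% the other way round, so reads may have been divided between them. Acot1 stood at 11.4 and 10.5 RPKM at 7 days, against 13.6 and 13.2 RPKM in the controls (log2 change -0.28; limma adjusted p = 0.413). Acot2 stood at 22.5 and 21.6 RPKM, against 20.6 and 21.4 RPKM in the controls (log2 change 0.07; limma adjusted p = 0.809).

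Among the 19 genes of pyruvate dehydrogenase, pyruvate carboxylase and the TCA cycle, 0 passed in limma at 7 days, and 2 were lower (10.5%, against 5.66% of all tested genes) and 0 higher at an unadjusted p under 0.05. In 11 of the 19 both 7 day libraries lay below both controls (57.9%, against 16.1% of all tested genes). The median log2 change was -0.20, against -0.24 for the 20 fatty acid genes and -0.31 for the 10 beta-oxidation genes alone. The 6 genes of pyruvate dehydrogenase and pyruvate carboxylase had a median of -0.12 and the 13 of the TCA cycle one of -0.20. No test was made between these groups of genes.

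Within the pyruvate dehydrogenase complex the subunits did not move as 1 block. Pdha1, the alpha subunit of its first enzyme, stood at 397 and 363 RPKM at 7 days, against 447 and 454 RPKM in the controls (log2 change -0.25; limma adjusted p = 0.209). Dld, the dihydrolipoamide dehydrogenase that all 2-oxo acid dehydrogenase complexes share, stood at 193 and 166 RPKM, against 212 and 218 RPKM in the controls (log2 change -0.26; limma adjusted p = 0.228). Both were lower in each 7 day library, whereas Dlat and Pdhx, the core and the component that binds Dld, had log2 changes of -0.04 and 0.06 and overlapped with the controls. Exons of Map3k15 lie opposite 21.2% of the exon bases of Pdha1. Pcx stood at 6.85 and 6.23 RPKM, against 5.30 and 5.54 RPKM in the controls (log2 change 0.25; limma adjusted p = 0.196).

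In the cycle itself, Idh3b, a regulatory subunit of the NAD-dependent isocitrate dehydrogenase, stood at 416 and 367 RPKM at 7 days, against 482 and 476 RPKM in the controls (log2 change -0.29, SE 0.11; limma adjusted p = 0.111). Fh1, fumarase, stood at 231 and 206 RPKM, against 269 and 259 RPKM in the controls (log2 change -0.27, SE 0.10; limma adjusted p = 0.112). Neither overlapped with the controls, and both passed after either rescaling. At the other end, Ogdh, the first enzyme of the 2-oxoglutarate dehydrogenase complex, stood at 254 and 270 RPKM, against 222 and 229 RPKM in the controls (log2 change 0.22; limma adjusted p = 0.172). Citrate synthase, encoded by Cs, overlapped with the controls, and its log2 change had a 95% confidence interval of -0.23 to 0.22.

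**Figure D2:**
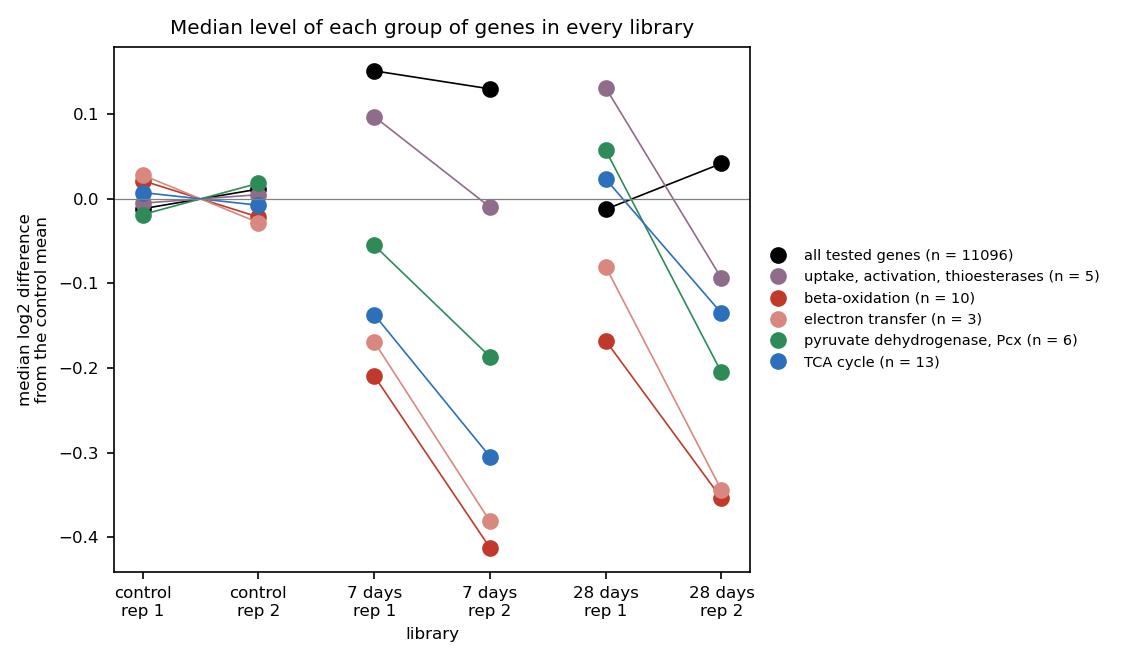
Median log2 difference from the control mean (vertical axis) for each group of genes in each of the 6 libraries (horizontal axis); lines join the 2 libraries of each infusion time. The beta-oxidation genes lie at -0.21 and -0.41 at 7 days and at -0.17 and -0.35 at 28 days, below the median of all tested genes in each, and replicate 2 is the lower at both times.

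The size of the difference varied between the infused libraries of 1 group. Replicate 2 lay below replicate 1 in 37 of 39 genes at 7 days and in 33 of 39 at 28 days. The median of the 39 genes against the control mean was -0.12 and -0.30 at 7 days, and -0.05 and -0.21 at 28 days. Over all tested genes it was 0.15 and 0.13 at 7 days and -0.01 and 0.04 at 28 days, so no such gap appeared in the median of all tested genes. The lowest of the 6 libraries was 7 day replicate 2 for 21 genes and 28 day replicate 2 for 13.

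The second comparison asked how the enzymes stood after 28 days. The beta-oxidation genes other than Acadl were again lower than in both controls, while the TCA cycle was mixed, with Sucla2 lowest and Idh2 highest. For Hadha the margin was narrow, as 28 day replicate 1 stood at 348.69 RPKM and control replicate 2 at 348.75 RPKM. In limma 0 of 39 genes passed at 28 days in either direction, where 1.54% of all tested genes fell and 2.87% rose. At an unadjusted p under 0.05, 6 were lower (15.4%, against 9.32% of all tested genes) and 2 were higher (5.13%, against 12.8%). The 28 day libraries lay below both controls in 20 genes (51.3%, against 25.8% of all tested genes) and above both in 7 (17.9%, against 28.8%). The median log2 change was -0.19 over the 39 genes, -0.23 over the 20 fatty acid genes and -0.06 over the 19 others, against 0.01 over all tested genes. Without 28 day replicate 2 these medians were -0.05, -0.09 and 0.05.

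Among the fatty acid genes, Hadhb stood at 209 and 196 RPKM at 28 days, against 257 and 253 RPKM in the controls (log2 change -0.33, SE 0.12; limma adjusted p = 0.168). Decr1 stood at 138 and 114 RPKM, against 163 and 154 RPKM in the controls (log2 change -0.33, SE 0.13; limma adjusted p = 0.196). Acaa2 stood at 563 and 512 RPKM, against 692 and 643 RPKM in the controls (log2 change -0.31, SE 0.13; limma adjusted p = 0.225). None of these groups overlapped. Hadh and Acadm had log2 changes of -0.21 and -0.26 at 28 days (limma adjusted p = 0.367 and 0.268). Cpt2 stood at 89.3 and 76.1 RPKM at 28 days, against 103 and 98.6 RPKM in the controls, a log2 change of -0.29 (limma adjusted p = 0.181). Crat stood at 107 and 97.6 RPKM, against 92.8 and 91.3 RPKM in the controls, a log2 change of 0.15 (limma adjusted p = 0.404). The carnitine enzymes thus lay on opposite sides of the controls.

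Etfa stood at 192 and 174 RPKM and Etfdh at 272 and 214 RPKM at 28 days, against 215 and 228 RPKM and 296 and 279.9 RPKM in the controls. Both lay below both controls, with log2 changes of -0.27 and -0.25 (limma adjusted p = 0.264 and 0.335). Etfb, by contrast, stood at 639 and 672 RPKM, within the range of 648 to 673 RPKM in the controls or just under it, a log2 change of -0.01 (limma adjusted p = 0.967). Acsl1 stood at 218 and 162 RPKM and Acot1 at 14.1 and 8.36 RPKM at 28 days. Replicate 2 was below both controls and replicate 1 above them in both genes, so the groups overlapped. Without 28 day replicate 1 the log2 change of Acot1 was -0.65 and passed (limma adjusted p = 0.0459), and without replicate 2 it was 0.08.

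Sucla2, the ADP-forming beta subunit of succinyl-CoA ligase, had the lowest log2 change of the 39 genes at 28 days. It stood at 255 and 218 RPKM, against 320 and 323 RPKM in the controls (log2 change -0.44, SE 0.12; limma adjusted p = 0.083). It passed after quantile normalization (limma adjusted p = 0.0328). The other subunits were also lower than both controls, Suclg1, the shared alpha subunit, by -0.28 and Suclg2, the GDP-forming beta subunit, by -0.24 on the log2 scale. Sucla2 stood at 282 and 250 RPKM at 7 days, so both infusion times lay below the controls.

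Promoter windows were looked at for the 35 of 39 genes that the RefSeq table held, in which Acaa2, Decr1, Crat and Idh3a were not found. The windows were searched on both strands for 3 elements bound by known regulators of mitochondrial genes. The ERR element TNAAGGTCA and the PPAR element AGGTCANAGGTCA, which both contain the hexamer AGGTCA, were found in 0 of the 35 genes and in 1.43% and 0.0481% of all 27025 genes. The NRF1 element GCGCNTGCGC was found in 4, namely Dld, Etfb, Etfdh and Sucla2 (11.4%, against 5.19% of all genes). The hexamer alone was found in 9 (25.7%, against 18.1%). The windows of Sucla2, chr14:73552536-73552835 on the plus strand, and of Etfdh, chr3:79628718-79629017, and Dld, chr12:31351422-31351721, on the minus strand are shown because they hold the NRF1 letters and their genes were lower than both controls at both times, which Etfb was not. Capitals mark the NRF1 element in all 3, from base 234 of the Sucla2 window, base 123 of the Etfdh window and base 290 of the Dld window, and the hexamer from base 92 of the Sucla2 window.
Sucla2: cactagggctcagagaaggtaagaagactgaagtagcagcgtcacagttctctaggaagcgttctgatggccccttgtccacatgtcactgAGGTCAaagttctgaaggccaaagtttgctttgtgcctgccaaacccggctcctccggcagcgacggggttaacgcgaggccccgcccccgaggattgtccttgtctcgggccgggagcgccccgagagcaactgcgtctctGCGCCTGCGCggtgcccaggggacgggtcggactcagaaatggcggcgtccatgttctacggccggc
Etfdh: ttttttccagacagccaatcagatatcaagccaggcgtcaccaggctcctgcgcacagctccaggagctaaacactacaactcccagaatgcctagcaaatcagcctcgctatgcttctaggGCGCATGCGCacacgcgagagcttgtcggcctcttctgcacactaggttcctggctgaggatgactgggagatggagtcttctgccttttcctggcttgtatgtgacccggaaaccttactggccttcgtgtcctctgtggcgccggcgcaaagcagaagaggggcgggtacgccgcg
Dld: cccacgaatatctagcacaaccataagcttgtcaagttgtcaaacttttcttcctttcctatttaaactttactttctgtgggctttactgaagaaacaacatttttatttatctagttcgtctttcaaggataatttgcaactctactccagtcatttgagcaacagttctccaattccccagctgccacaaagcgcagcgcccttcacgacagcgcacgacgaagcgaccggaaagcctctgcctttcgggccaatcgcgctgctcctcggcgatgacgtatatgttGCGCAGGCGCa
In Etfdh the element reads the same on both strands, and in Dld it lies on the opposite strand. A match is only a description of these letters, and factor binding was not measured.

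Idh2, the NADP-dependent isocitrate dehydrogenase of mitochondria, had the highest log2 change of the 39 genes at 28 days. It stood at 1035 and 1246 RPKM, against 864 and 798 RPKM in the controls (log2 change 0.45, SE 0.13; limma adjusted p = 0.10). Pcx stood at 7.64 and 6.71 RPKM, against 5.30 and 5.54 RPKM in the controls (log2 change 0.37, SE 0.12; limma adjusted p = 0.13). Ogdh stood at 255 and 272 RPKM, against 222 and 229 RPKM in the controls (log2 change 0.22, SE 0.10; limma adjusted p = 0.23). In all 3 genes both 28 day libraries lay above both controls. Adipocyte transcripts differed between the 28 day libraries. Summed over 8 adipocyte markers, the level was 89.1 and 31.3 RPKM at 28 days, against 21.4 and 24.7 RPKM in the controls. At 7 days the sum was 47.1 and 41.5 RPKM, with Pcx at 6.85 and 6.23 RPKM. The replicate with 89.1 RPKM had the higher Pcx, and Adipoq was at 5.78 RPKM there, against 0.474 RPKM in replicate 2. That library was also the highest of the 6 for 12 of the 39 genes. These were Acsl1, Acot1, Acot2, Cd36, Crat, Pcx, Pdhb, Dlat, Pdhx, Cs, Dlst and Mdh1. Cidea, which is 1 of the 8 markers, stood at 31.8 and 28.0 RPKM at 28 days, against 17.6 and 16.7 RPKM in the controls. The part of adipocytes in these genes was not tested.

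**Figure D3:**
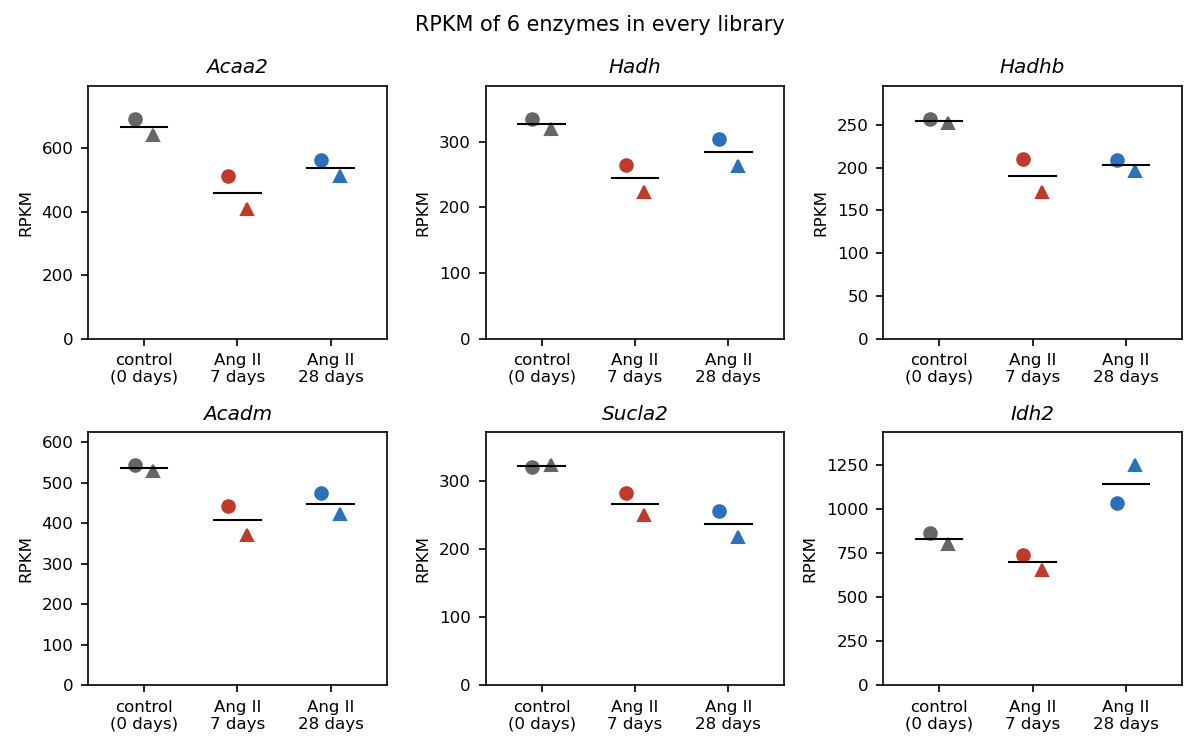
RPKM (vertical axis, from 0) of 6 enzymes in every library, by days of infusion (horizontal axis); circles are replicate 1, triangles replicate 2 and bars the mean of 2 libraries. Acaa2, Hadh, Hadhb, Acadm and Sucla2 lie below both controls in all 4 infused libraries, and Idh2 lies above both controls at 28 days and below both at 7 days.

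The third comparison asked which enzymes differed between 28 and 7 days. Idh2 rose and 0 of 39 fell in limma, where 0.406% of all tested genes rose and 4.26% fell. Idh2 stood at 1035 and 1246 RPKM at 28 days, against 737 and 654 RPKM at 7 days (log2 change 0.71, SE 0.13, n = 2 per group; limma adjusted p = 0.03). The groups did not overlap. Leaving out any library but 28 day replicate 1 ended the call, with log2 changes of 0.57 to 0.84 over all libraries left out and adjusted p up to 0.145. The control libraries are not in this comparison, and without them only the shared spread differed. It was also lost with no filter on low values and with only the 2 groups compared (limma adjusted p = 0.0953 and 0.0827). At an unadjusted p under 0.05, Idh2 was again the only one of the 39 that was higher (3.0% of all tested genes) and 0 were lower (19.1%).

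The start region of Idh2 is shown as that of the gene that rose. Its RefSeq window, chr7:80115301-80115600 on the minus strand, held none of the letters searched for and has no capitals.
Idh2: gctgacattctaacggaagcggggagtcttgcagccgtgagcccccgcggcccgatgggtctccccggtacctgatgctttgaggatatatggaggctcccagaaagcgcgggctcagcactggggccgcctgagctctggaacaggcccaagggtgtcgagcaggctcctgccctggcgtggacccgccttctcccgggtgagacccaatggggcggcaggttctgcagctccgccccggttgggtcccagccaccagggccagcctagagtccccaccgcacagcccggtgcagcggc

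Besides Idh2, both 28 day libraries lay above both 7 day libraries in 4 genes, namely Acaa2, Etfb, Cs and Mdh1 (5 of 39 with Idh2, or 12.8%, against 9.12% of all tested genes). They lay below in 1, Cpt2 (2.56%, against 41.2%). Acaa2 stood at 563 and 512 RPKM at 28 days, against 511 and 407 RPKM at 7 days, a log2 change of 0.23 (limma adjusted p = 0.348, not past the threshold). Its 28 day libraries lay between those of the 7 day and control hearts. The margin was narrow, as 28 day replicate 2 stood at 511.66 RPKM and 7 day replicate 1 at 511.18 RPKM. Etfb had a log2 change of 0.24 and Cpt2 one of -0.22 (limma adjusted p = 0.287 and 0.28). The median log2 change of the 39 genes was 0.05, against -0.12 over all tested genes.

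Ratios between partner enzymes within a library do not depend on how the library was scaled. They were computed for 13 pairs, shown here for those whose values were of interest after they were seen, and were not tested. Acadl to Acadm was 1.12 and 1.22 at 7 days and 1.003 and 1.22 at 28 days, against 0.87 and 0.90 in the controls. The ratio was above 1 in all 4 infused libraries and below 1 in both controls. Ogdh to Dld was 1.31 and 1.63 at 7 days and 1.29 and 1.72 at 28 days, against 1.05 and 1.05 in the controls. Mdh2 to Mdh1, the mitochondrial to the cytosolic malate dehydrogenase, was 0.923 and 0.984 at 7 days and 0.731 and 0.904 at 28 days, against 0.701 and 0.737 in the controls. Only the 7 day values lay outside the control range in both libraries. Idh2 to Idh3a, the catalytic subunit of the NAD-dependent enzyme, was 3.18 and 3.29 at 7 days and 4.35 and 5.62 at 28 days, against 3.94 and 3.31 in the controls. The 28 day values lay above both controls, replicate 1 narrowly so.

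**Figure D4:**
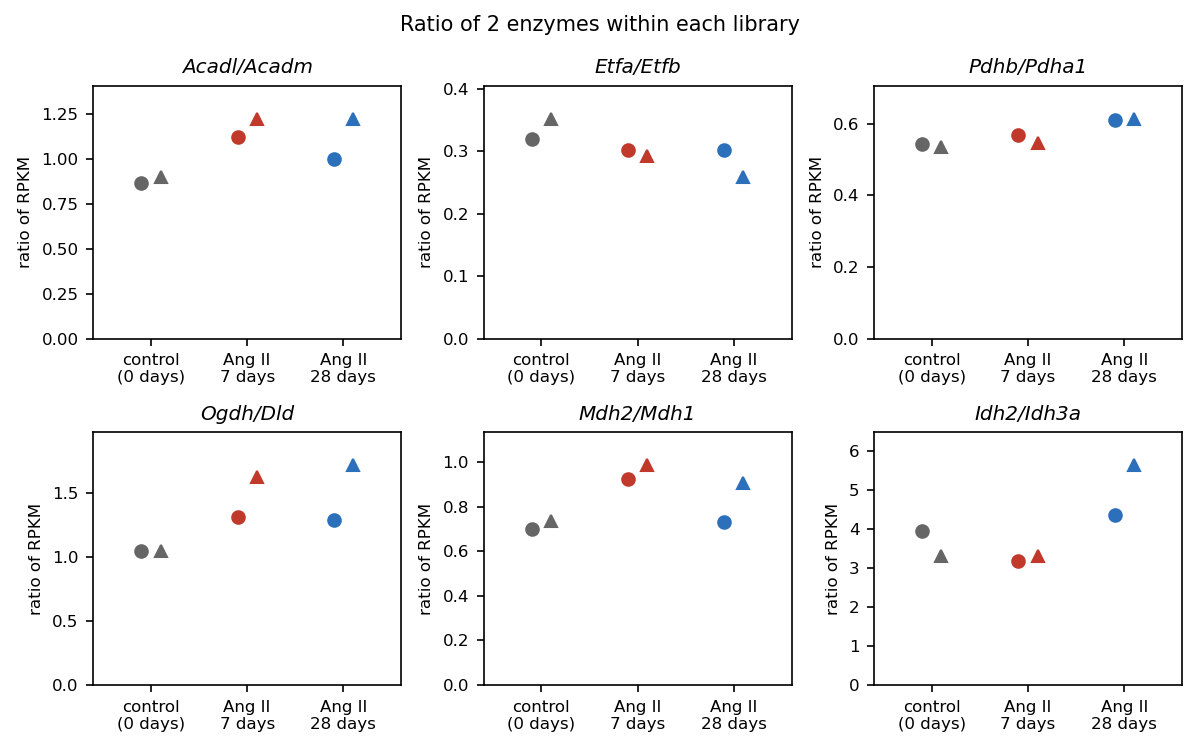
Ratio of the RPKM of 2 enzymes within each library (vertical axis, from 0) by days of infusion (horizontal axis), for 6 pairs; circles are replicate 1 and triangles replicate 2. Acadl to Acadm lies above 0.90, the higher control, in all 4 infused libraries, and Idh2 to Idh3a is highest at 28 days, at 4.35 and 5.62.

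Members are abundant, so they were also set, after the values were seen, beside the 443 tested genes with a mean of at least 100 RPKM. The median log2 change of these genes was 0.03 at 7 days and 0.08 at 28 days, whereas that of the 30 members among them was -0.25 and -0.19. Both infused libraries lay below both controls in 25.1% of the abundant genes at 7 days and in 21.2% at 28 days. An unadjusted p under 0.05 in the lower direction was reached by 9.03% at 7 days and 7.0% at 28 days.

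Other genes of the same pathways were read from lists chosen with earlier results of these data known. Over all tested genes, as a background for the counts of each list, 13.2% rose and 2.27% fell at 7 days, and 2.87% rose and 1.54% fell at 28 days. Of 38 tested genes of fatty acid handling, 2 rose and 0 fell at 7 days, and 0 passed in limma at 28 days. The fatty acid-binding protein Fabp5 stood at 21.1 and 26.6 RPKM at 7 days, against 14.4 and 15.4 RPKM in the controls (log2 change 0.65; limma adjusted p = 0.0225). Acsl5, an acyl-CoA synthetase, stood at 8.24 and 10.0 RPKM, against 6.16 and 5.61 RPKM in the controls (log2 change 0.59; limma adjusted p = 0.0338). Both then fell at 28 days relative to 7 days, by 0.77 and 0.67 on the log2 scale (limma adjusted p = 0.0274 and 0.0439), and none of these calls passed after either rescaling. Cpt1b, the muscle form of the enzyme that commits fatty acids to oxidation, stood at 207 and 245 RPKM at 28 days, against 166 and 171 RPKM in the controls (log2 change 0.42; limma adjusted p = 0.083). Its libraries did not overlap, and it lay on the other side of the controls from Cpt2.

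Of 26 tested genes of pyruvate and TCA metabolism, 2 rose and 2 fell at 7 days and 2 fell at 28 days. Idh1, the cytosolic isocitrate dehydrogenase, stood at 18.7 and 17.0 RPKM at 7 days and 16.5 and 17.3 RPKM at 28 days, against 29.0 and 25.6 RPKM in the controls. It fell by 0.60 and 0.67 on the log2 scale (limma adjusted p = 0.0147 and 0.0244). Pdp2, a phosphatase that switches pyruvate dehydrogenase on, stood at 2.62 and 3.001 RPKM at 7 days and 2.63 and 2.33 RPKM at 28 days, against 4.25 and 4.72 RPKM in the controls, and fell by 0.59 and 0.75 (limma adjusted p = 0.0296 and 0.0321). Slc25a1, the mitochondrial citrate carrier, stood at 5.65 and 4.14 RPKM at 7 days, against 2.18 and 2.11 RPKM in the controls, and rose by 1.01 (limma adjusted p = 0.0112). Me2, a malic enzyme, stood at 3.76 and 3.31 RPKM at 7 days, against 2.49 and 1.95 RPKM in the controls, and rose by 0.57 (limma adjusted p = 0.0431). It did not pass after median ratio scaling or quantile normalization (limma adjusted p = 0.116 and 0.142). Sdha, a subunit of succinate dehydrogenase, had log2 changes of -0.31 and -0.24 at 7 and 28 days (limma adjusted p = 0.143 and 0.322).

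Pdk4, the kinase that switches pyruvate dehydrogenase off, differed between the 28 day libraries, at 299 and 98.0 RPKM, against 211 and 244 RPKM in the controls (log2 change -0.40; limma adjusted p = 0.626). Of 17 regulators of these pathways, 2 fell at 7 days and 0 rose, and 0 passed in limma at 28 days. Klf15, a transcription factor of cardiac lipid use, stood at 10.8 and 14.0 RPKM at 7 days, against 20.05 and 23.7 RPKM in the controls (log2 change -0.80; limma adjusted p = 0.0155). Ppargc1a, a coactivator of mitochondrial genes, stood at 13.3 and 11.3 RPKM, against 18.1 and 18.9 RPKM in the controls (log2 change -0.57; limma adjusted p = 0.0413). At 28 days relative to 7 days Klf15 rose by 0.69 (limma adjusted p = 0.0494). The nuclear receptors Ppara and Esrra had log2 changes of -0.30 and 0.01 at 7 days (limma adjusted p = 0.309 and 0.949). Each call on a gene outside the 39 was lost when control replicate 1, and likewise control replicate 2, was left out, with adjusted p up to 0.239. At 7 days Fabp5 and Idh1 were also lost without 7 day replicate 2, Klf15 and Slc25a1 without 7 day replicate 1, and Acsl5, Me2, Pdp2 and Ppargc1a without either. At 28 days Idh1 was also lost without 28 day replicate 1 and Pdp2 without any library, as was Klf15 for 28 against 7 days. For 28 against 7 days Fabp5 was also lost without 7 day replicate 2 or 28 day replicate 1, and Acsl5 without either 7 day library or 28 day replicate 1. With only the 2 groups compared, Pdp2 at 28 days was lost (limma adjusted p = 0.0597), as were Klf15, Acsl5 and Fabp5 for 28 against 7 days (limma adjusted p = 0.0871, 0.0916 and 0.0588). For Klf15 in that comparison the adjusted p was also above 0.05 with a pseudocount of 0.1, a mean of at least 5 RPKM and no mean-variance trend (limma adjusted p = 0.0507, 0.0502 and 0.0667). Acsl5 in that comparison was lost with the last 2 as well (limma adjusted p = 0.0502 and 0.055), and Ppargc1a at 7 days with no mean-variance trend (limma adjusted p = 0.0561). With no filter on low values Acsl5, Me2, Pdp2 and Ppargc1a at 7 days, Idh1 and Pdp2 at 28 days and all 3 genes for 28 against 7 days were lost, with adjusted p up to 0.104.

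In whole hearts, fewer cells of a type and less RNA per cell cannot be told apart. Markers of other cells moved with the 7 day values. None of the markers named here was at 0 in all libraries. Over all tested genes 13.2% rose at 7 days. Of 10 fibroblast markers, 6 rose, with a summed level of 1202 and 1291 RPKM at 7 days, against 524 and 535 RPKM in the controls. Of 10 macrophage markers, 8 rose, with 553 and 612 RPKM at 7 days, against 330.0 and 336 RPKM in the controls. Of 8 endothelial markers, 3 rose, with 264 and 319 RPKM at 7 days, against 207 and 196 RPKM in the controls. Of 10 cardiac myocyte markers, 1 rose, and their sum was 53630 and 43263 RPKM at 7 days, against 46174 and 45136 RPKM in the controls. In 7 day replicate 2, where the 39 genes were lower, the myocyte sum was lower and the fibroblast and macrophage sums higher than in replicate 1. Their part in the difference of the 39 genes was not tested. At 28 days the fibroblast sum was 610 and 557 RPKM and the macrophage sum 301 and 214 RPKM, while the myocyte sum was 54071 and 58034 RPKM. In 28 day replicate 2 most of the 39 genes were also lower than in replicate 1. The myocyte sum was higher there and the fibroblast and macrophage sums lower, but single myocyte and fibroblast markers went both ways. Myl2 stood at 19214 RPKM in replicate 2, against 14504 RPKM in replicate 1, while Myh6 stood at 4702 RPKM, against 5707 RPKM. Dcn stood at 247 RPKM, against 353 RPKM, while Vim stood at 133 RPKM, against 97.9 RPKM. The part of these cells was not tested at 28 days either. At 28 days 3 of 10 myocyte, 1 of 10 fibroblast, 0 of 10 macrophage and 1 of 8 endothelial markers rose, against 2.87% of all tested genes.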

How the data were processed

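RNA of whole hearts was sequenced as 6 libraries on an Illumina HiSeq instrument, per the labels' protocols. The authors deposited 1 table of RPKM, per the file headers, with a column for each library. DESeq2, HTSeq, Bowtie 0.12.9 and TopHat2 2.0.12 are named in the submitters' processing notes, with mm8 and mm9 as builds and no roles. Which annotation and which program gave the RPKM was not stated in the sources used here. RPKM were log2 transformed after adding 0.5, which understates changes of low genes. Genes with a mean of at least 1 RPKM, 11096 in all, were fitted in limma 3.58.1 (R 4.3.3) over all 6 libraries with group means and a mean-variance trend (3 residual and 4.21 prior degrees of freedom), and p-values were adjusted over all tested genes. The script was tested on simulated data. Reads were scaled by the authors, so genes at a high level in 1 group lower the RPKM of others, and rescaling was tried. Members and lists were chosen with earlier results of these data known. Every member may be named. Full values go to those that passed and to up to 3 per role with the lowest p. Those of Acadm, Acadl, Decr1, Hadha, Cd36, Fabp3, Fh1 and Ogdh were added after they were seen. Of the other pathway genes, up to 8 that passed are named per list, besides Cpt1b, Sdha, Pdk4, Ppara, Ppargc1a and Esrra. One further gene of this rule is not reported here. Medians of gene groups were not tested. Missing symbols were looked up by older names. Promoter sequences are from RefSeq on GRCm38.p6, matched by symbol, and exon overlaps from GENCODE M21, so no coordinates of the authors' builds were used. Alternatives were other pseudocounts (0.1 and 1), no filter, a mean of at least 5 RPKM, quantile normalization, median ratio scaling, a fit of only the 2 groups compared, no trend, each library left out and a replicate block. Where leaving one out left 1 sample in a group, its spread was taken from the other groups. Python 3.11.15 was used for tables and figures.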

Additional observations from a re-analysis of the deposited data

Results flagged for a closer look

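Idh2 was the single gene of the 39 whose change from the controls differed between the infusion times by a test of the difference itself. The log2 change at 28 days lay 0.71 above that at 7 days (limma adjusted p = 0.03). The call was lost with no filter, with only the 2 groups compared and with a replicate block (limma adjusted p = 0.0953, 0.0827 and 0.0563). With 1 library left out this difference lay between 0.57 and 0.84. Against the controls the log2 change of Idh2 was 0.45 at 28 days and -0.26 at 7 days, with both 28 day libraries above and both 7 day libraries below both controls. Groups of 2 libraries are too small for a test of single libraries that stand apart.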

How the results depend on the processing

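Of 225 recomputed counts and medians of the 39 genes, 190 stayed within the limits set. At 7 days 1 gene fell as reported. The number was 0 with no filter, 0 with no mean-variance trend, 7 with median ratio scaling, 9 with quantile normalization, 2 with only the 2 groups compared, and between 0 and 5 with 1 library left out (0 without 7 day replicate 2 or either control, 5 without 7 day replicate 1). At 28 days it was 2 with quantile normalization and between 0 and 1 with 1 library left out, against 0 as reported. From 7 to 28 days the number that rose was 0 with no filter and 0 with only the 2 groups compared, and between 0 and 1 with 1 library left out. For median ratio scaling, the median log2 change at 7 days moved to -0.36 over all 39, -0.40 over the fatty acid genes and -0.36 over the others, and from 7 to 28 days to 0.19, 0.18 and 0.19. For quantile normalization it moved to -0.35 over all 39 at 7 days, and at 28 days to -0.29 over all 39 and -0.17 over the pyruvate dehydrogenase and TCA genes. Rescaling sets the median of all genes near 0, from 0.14 at 7 days. The cause of the other changes was not tested.

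With 1 library left out, the median over all 39 lay between -0.30 and -0.12 at 7 days, between -0.21 and -0.048 at 28 days and between -0.01 and 0.14 from 7 to 28 days. That over the fatty acid genes lay between -0.33 and -0.13, between -0.33 and -0.09 and between -0.094 and 0.17. That over the pyruvate dehydrogenase and TCA genes lay between -0.29 and -0.11, between -0.15 and 0.05 and between 0.00 and 0.12.

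Signs turned for 5 named genes, none of which passed as reported. At 7 days, with median ratio scaling and quantile normalization, Crat was at -0.075 and -0.061, Acsl1 at -0.038 and -0.013 and Acot2 at -0.085 and -0.11. At 28 days, with 1 library left out, Etfb lay between -0.048 and 0.025, Acsl1 between -0.076 and 0.36, Acot1 between -0.65 and 0.078 and Acot2 between -0.094 and 0.41.

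Replicate numbers were not taken as pairs: deviations of same-numbered libraries correlated at 0.149, -0.019 and -0.014 across genes. With a replicate block, 2 genes fell at 7 days (Acaa2 and Hadh) and 0 rose from 7 to 28 days. Outside the 39 genes the block also ended the calls on Pdp2 at 28 days (limma adjusted p = 0.0513) and on Klf15 and Acsl5 for 28 against 7 days (limma adjusted p = 0.061 and 0.0605). The 2 libraries per group limit these tests, and Slc25a1, Me2 and Pdp2 were not tested at a mean of at least 5 RPKM.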
